A study of Mus musculus with 28 samples.

Results

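The genes described here are the 10 genes whose products carry the signal of Toll-like receptor 4 (TLR4) from the cell surface to the first kinases inside the cell: the co-receptors Cd14 and Ly96, the adaptors Tirap, Myd88, Ticam2 and Ticam1, and the interleukin-1 receptor-associated kinases Irak4, Irak1, Irak2 and Irak3. They are a list of names, and the list was drawn up with earlier results of these data known. All 10 were found among the 54532 genes of the deposited table, by Ensembl identifier through a GENCODE annotation of the mouse genome GRCm38. Their RNA was measured by bulk RNA sequencing in 28 cultures of murine bone marrow-derived macrophages (BMDM), which the cell type label gives for every culture.

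Macrophages were grown from the marrow of C57/B6JB mice with M-CSF and kept in medium with 1 mM CaCl2, which all groups shared. They received PBS as control, plasma-derived von Willebrand factor (VWF) at 10 µg/ml or bacterial lipopolysaccharide (LPS) at 100 ng/ml, for 3.5 h or 16 h. At each time there were 5 control, 5 VWF-treated and 4 LPS-treated cultures. VWF is a large plasma glycoprotein of haemostasis, here from human plasma, and LPS is the bacterial ligand of TLR4. The cultures are labelled as biological replicates, but it is not given which mouse or preparation a replicate number stands for, so the p-values measure the spread between these cultures.

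LPS reaches TLR4 through CD14, a surface protein that extracts LPS and hands it on, and MD-2, the product of Ly96, which binds LPS inside the receptor complex. At the plasma membrane TIRAP recruits MyD88, which assembles IRAK4 with IRAK1 or IRAK2 and leads to NF-κB and MAP kinases. From endosomes the bridging adaptor TRAM (Ticam2) recruits TRIF (Ticam1), which leads to IRF3 and type I interferon. IRAK3, also called IRAK-M, lacks normal kinase activity and is known as an inhibitor of this cascade in macrophages. Several of these genes are themselves known to be induced when macrophages meet microbial ligands.

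RefSeq promoter windows on GRCm38.p6 were matched by symbol for 7 of the 10 genes, 10 windows in all, each with 250 bases before and 50 after an annotated transcription start. The 250 bases before the start are shown for Myd88, Irak3 and Irak2, the 3 members with the widest range of group means among those with a window. Capitals mark matches to the motifs searched on both strands. The Myd88 window lies at chr9:119340019-119340268 on the minus strand, the second Irak3 window at chr10:120202131-120202380 on the minus strand and the Irak2 window at chr6:113638217-113638466 on the plus strand, all written 5′ to 3′ in the direction of the gene.
Myd88: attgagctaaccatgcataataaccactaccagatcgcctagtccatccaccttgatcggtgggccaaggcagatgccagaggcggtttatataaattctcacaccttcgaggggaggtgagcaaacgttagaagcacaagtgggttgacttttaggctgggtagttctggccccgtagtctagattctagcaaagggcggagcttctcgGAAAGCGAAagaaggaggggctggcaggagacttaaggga
Irak3: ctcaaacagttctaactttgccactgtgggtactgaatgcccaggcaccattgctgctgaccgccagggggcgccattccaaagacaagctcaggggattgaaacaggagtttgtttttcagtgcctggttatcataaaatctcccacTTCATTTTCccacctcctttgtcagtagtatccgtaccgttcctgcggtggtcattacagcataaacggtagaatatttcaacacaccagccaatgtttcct
Irak2: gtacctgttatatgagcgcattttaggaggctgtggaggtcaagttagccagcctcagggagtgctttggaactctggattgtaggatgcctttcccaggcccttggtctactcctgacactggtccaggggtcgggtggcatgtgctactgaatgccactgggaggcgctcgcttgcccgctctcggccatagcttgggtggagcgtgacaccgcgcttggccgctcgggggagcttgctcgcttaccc
The 4 motifs were GGANNTTCC, the core of an NF-κB site, TGANTCA for AP-1, GAAANNGAA for the core of an interferon-stimulated response element (ISRE) and GAGGAAGT for PU.1. Myd88 held an ISRE core 40 bases before its start (GAAAGCGAA), a motif found in 8.56% of all 32851 windows. It also held an NF-κB core in the stretch after the start, as GGAAACTCC on the other strand from position 5, a motif found in 4.26% of all windows. The Irak3 window held an ISRE core on the other strand, as TTCATTTTC from 102 bases before the start. Tirap was the other member with an NF-κB core, GGAGCTTCC, 21 bases before the start of its second window. No motif was matched in the windows of Irak2, Ticam1, Irak4 and Irak1, and AP-1 and PU.1 letters, present in 7.81% and 3.2% of all windows, were in none of the members' windows. These matches describe letters and are not evidence of binding.

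Total counts per culture lay between 41131209 and 77699206, with a median of 52986574. Scaling factors (TMM) were 0.735 to 0.848 in LPS-treated cultures at 16 h and 0.796 to 0.840 at 3.5 h, and 0.945 to 1.18 in the other groups. Values below are CPM (read counts relative to library size, with these factors), and TPM wherever genes are compared with each other. TPM is counts over exon length, relative to their sum in the culture and without these factors. Control 16 h replicate 5 stood apart, with counts on 16690 genes and a TMM factor of 0.945, against at least 19184 genes and factors of 1.166 to 1.179 in the other controls at 16 h. Without it, the number of members called stayed at 2 for VWF and 5 for LPS against control at 16 h. LPS 16 h replicate 4 also stood apart, with counts on 16011 genes and a TMM factor of 0.735. The other LPS cultures at 16 h had at least 19029 genes and factors of 0.784 to 0.848. Leaving out any single culture gave 5 or 6 members called for LPS against control at 16 h, and 4 for VWF against LPS at 16 h. The macrophage markers Adgre1, Csf1r, Itgam, Cd68, Fcgr1, Mertk and Lyz2 were counted in all 28 cultures, with summed levels of 4858 to 16238 CPM in controls at 16 h and 18358 to 25694 CPM with VWF at 16 h. Of 5 neutrophil markers, Ly6g had at most 2 counts in a culture and Ngp, Camp and Ltf up to 362, 188 and 169, with a summed level of 0.247 to 5.96 CPM in controls at 3.5 h, 1.99 to 11.1 CPM with VWF and 4.08 to 10.3 CPM with LPS, and 0.529 to 7.54 CPM in all groups at 16 h. Of 5 T and NK cell markers, Klrb1c reached 91 counts and Cd3e 6, and the summed level was at most 1.70 CPM. Among 3 markers of megakaryocytes and platelets, Pf4, which macrophages can also express, stood at 268 to 1294 CPM over all cultures, while Itga2b had at most 116 counts and Gp9 at most 6. Among 4 dendritic cell markers the summed level was 0.611 to 1.95 CPM in controls at either time, 13.6 to 19.3 CPM with VWF at 3.5 h, 0.915 to 2.91 CPM with VWF at 16 h and 12.9 to 29.8 CPM with LPS at either time. Xcr1 alone reached 28.7 CPM, while Flt3 had at most 8 counts in a culture. Stromal markers varied widely inside every group, from 16.5 to 386 CPM over all cultures. The part of these cells in the results below was not tested.

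Genes with 10 TPM or more in any culture of a comparison were tested in it, and called at an adjusted p under 0.05 by edgeR's quasi-likelihood test with at least a 2-fold difference. Tirap and Ticam2 reached 10 TPM in VWF cultures at 3.5 h and in no other group, so that they entered a comparison only through the group where they were high, and counts and medians are given over the other 8 members. With VWF at 3.5 h, 4 of these 8 rose and none fell (Cd14, Irak2, Irak3 and Myd88). Of 8200 genes tested, 14.7% were called and 9.18% were called higher. The median log2 fold change of the 8 was 0.79, against 0.0015 over all genes tested. Ticam2 was also called higher, and remained so without an expression filter (log2 1.43). With LPS at 3.5 h, 4 of the 8 rose (Cd14, Irak3, Ly96 and Myd88), where 24.5% of 8190 genes were called and 12.8% were called higher. Their median was 1.01, against -0.02 over all genes.

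By 16 h the agonists differed. With VWF, Irak3 rose and Cd14 fell among the 8, where 8.71% of 7798 genes were called, 4.55% higher and 4.15% lower, and their median was -0.13. With LPS, 5 of the 8 rose (Cd14, Irak2, Irak3, Myd88 and Ticam1), where 27.6% of 7994 genes were called and 15.3% were called higher, and the median was 1.38. VWF and LPS were compared with the same control cultures, so these counts are not independent. Tirap and Ticam2 were below the filter in all comparisons without VWF cultures at 3.5 h. Scaling was also done by library size alone, without TMM factors. The median log2 fold change of all genes was then -0.54 and -0.57 for LPS against control at 3.5 h and 16 h. For VWF at 3.5 h that median was -0.22. The split of all called genes into higher and lower was then 708 and 2157 for LPS at 3.5 h (1047 and 963 with TMM), 793 and 2253 for LPS at 16 h (1221 and 989) and 612 and 643 for VWF at 3.5 h (753 and 453). On that scale, members called higher and lower numbered 2 and 1 for LPS at 3.5 h, 4 and 1 for LPS at 16 h and, with Ticam2 included, 4 and 0 for VWF at 3.5 h. LPS changes here are therefore stated relative to the bulk of expressed genes.

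**Figure D1:**
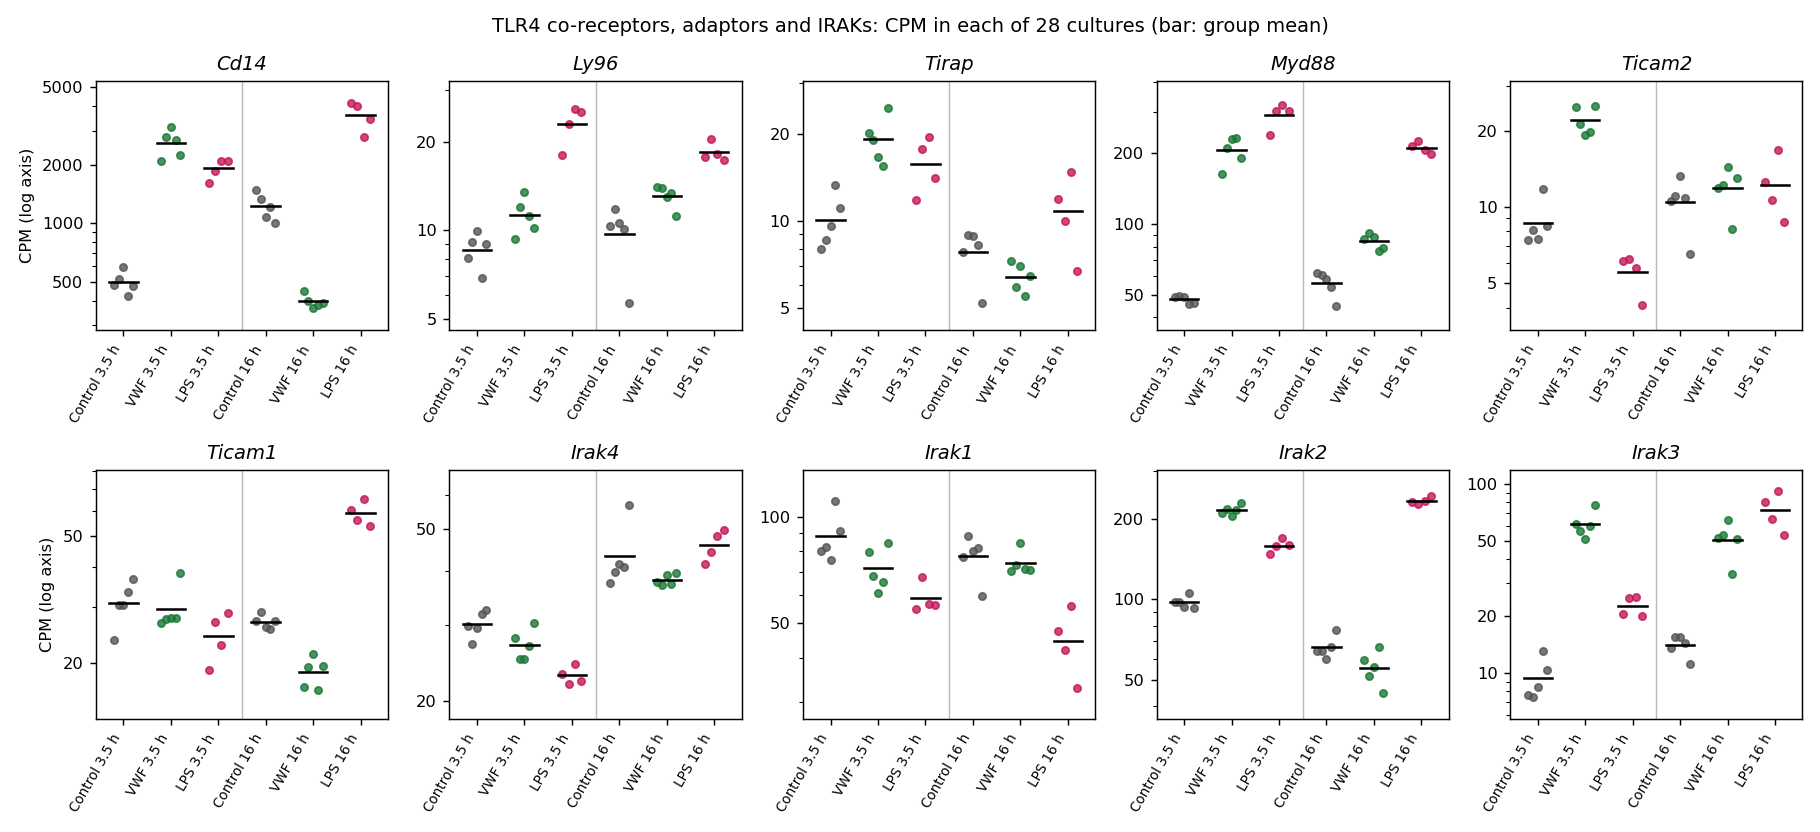
CPM of each member (log axis) in each of the 28 cultures by group, 5 control (grey), 5 VWF (green) and 4 LPS cultures (magenta) per time, with a black bar at the group mean. All 5 VWF cultures at 16 h sit below all controls at 16 h for Cd14, while for Irak3 the VWF and LPS cultures sit above the controls at both times.

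Cd14 was the most abundant member, and the member with the widest range. It has 1 locus on chromosome 18 (ENSMUSG00000051439). Its mean was 924 ± 58.2 TPM (SD, n = 5) in controls at 3.5 h, where the next member per length, Irak2, was at 71.7 ± 8.64 TPM. At 3.5 h the control cultures held 482, 514, 594, 425 and 477 CPM, the VWF cultures 2096, 2784, 3127, 2682 and 2236 CPM and the LPS cultures 1614, 1859, 2089 and 2103 CPM. Every treated culture lay above every control. Cd14 rose 5.28-fold with VWF (log2 2.40 ± 0.13 SE, edgeR adjusted p = 6.44e-08) and 3.90-fold with LPS (log2 1.96 ± 0.13, edgeR adjusted p = 1.34e-07). VWF and LPS cultures overlapped, with a log2 difference of 0.45 that was under 2-fold (edgeR adjusted p = 0.0186).

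At 16 h the Cd14 values were 1484, 1335, 1075, 1218 and 1004 CPM in controls, 449, 400, 366, 381 and 391 CPM with VWF and 4154, 4010, 2778 and 3460 CPM with LPS. The groups separated completely, with VWF lowest and LPS highest. Against the controls of that time Cd14 fell 3.10-fold with VWF (log2 -1.63 ± 0.13, edgeR adjusted p = 5.41e-06) and rose 3.02-fold with LPS (log2 1.60 ± 0.16, edgeR adjusted p = 2.56e-05). The fall with VWF was larger without control 16 h replicate 5 (log2 -1.70). Controls themselves rose 2.47-fold between 3.5 h and 16 h (log2 1.31 ± 0.13, edgeR adjusted p = 4.45e-05), where 9.11% of 8333 genes were called and 4.12% were called higher, and Cd14 was the one member called of 8 tested. Set against its own 3.5 h level, the VWF group at 16 h was 6.47-fold lower, and the LPS group was higher by 0.94 on the log2 scale, which became a call without LPS 16 h replicate 3 (1.05). The summed macrophage markers given above, in which Lyz2 was the most abundant (2263 to 18444 CPM over all cultures), were higher in VWF cultures than in controls at 16 h. Fewer cells expressing a gene and less RNA per cell cannot be told apart in bulk RNA.

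Ly96, at chr1:16688051-16709611 on the plus strand (ENSMUSG00000025779), was a low-count member that responded to LPS. At 3.5 h it stood at 8.01, 9.09, 9.92, 6.88 and 8.99 CPM in controls, 9.33, 12.0, 13.5, 11.2 and 10.2 CPM with VWF and 18.05, 22.9, 25.9 and 25.1 CPM with LPS. Only the LPS cultures were clear of the controls. The rise with LPS was 2.72-fold (log2 1.44 ± 0.14, edgeR adjusted p = 5.18e-06), and with VWF the log2 difference was 0.42 ± 0.13 and under 2-fold. VWF cultures were 2.01-fold below LPS cultures (log2 -1.01 ± 0.14, edgeR adjusted p = 0.000152), just past the fold threshold: the call was lost without LPS 3.5 h replicate 3 or 4 or VWF 3.5 h replicate 1 or 5, with replicate number as a block (log2 -0.97) and by library size (log2 -0.72). The rise with LPS alone was also under 2-fold by library size (log2 0.92). At 16 h Ly96 was at 9.69 ± 2.34 CPM in controls (SD, n = 5), 13.1 ± 1.16 with VWF and 18.4 ± 1.41 with LPS (n = 4), and neither agonist passed the fold threshold (log2 0.42 and 0.96). The low control was replicate 5, at 5.67 CPM, and without it the LPS difference was 0.82. That difference passed the threshold without control 16 h replicate 2 (1.04).

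Myd88, the adaptor shared by most Toll-like receptors and the interleukin-1 receptor, lies at chr9:119335934-119341411 on the minus strand (ENSMUSG00000032508), and 11.3% of its exon bases are covered by exons of Acaa1a on the other strand. At 3.5 h its levels were 48.8, 49.1, 48.6, 45.8 and 46.2 CPM in controls, 164, 210, 228, 232 and 191 CPM with VWF and 238, 301, 319 and 302 CPM with LPS. The controls lay between 45.8 and 49.1 CPM, and all LPS cultures exceeded all VWF cultures. By library size the LPS cultures (199.6 to 254.4 CPM) and VWF cultures (177.1 to 225.6 CPM) overlapped, so that separation depends on the scaling. Myd88 rose 4.38-fold with VWF (log2 2.13 ± 0.10, edgeR adjusted p = 1.29e-08) and 6.16-fold with LPS (log2 2.62 ± 0.10, edgeR adjusted p = 1.83e-09). The direct difference between them was 1.39-fold (log2 -0.48, edgeR adjusted p = 0.00763), less than the threshold of 2. At 16 h it measured 62.1, 60.6, 58.4, 53.9 and 44.7 CPM in controls, 86.0, 91.8, 88.0, 76.5 and 78.8 CPM with VWF and 215, 225, 206 and 198 CPM with LPS. The order control, VWF, LPS held without overlap. The LPS rise was 3.86-fold (log2 1.95 ± 0.11, edgeR adjusted p = 4.29e-07), whereas VWF cultures were 1.50-fold above controls and not called (log2 0.58 ± 0.11).

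Tirap, which brings MyD88 to the membrane, lies at chr9:35184551-35200291 on the minus strand (ENSMUSG00000032041). Its level ranged from 5.20 to 24.6 CPM over the 28 cultures. At 3.5 h the controls were at 8.01, 8.58, 9.59, 13.3 and 11.1 CPM and the VWF cultures at 20.1, 19.1, 16.7, 15.6 and 24.6 CPM, without overlap. The 1.94-fold difference did not reach the threshold (log2 0.96 ± 0.16, edgeR adjusted p = 0.000564), but passed it without control 3.5 h replicate 4 or VWF 3.5 h replicate 3 or 4. In VWF-treated macrophages it then fell 2.97-fold to 16 h (log2 -1.57 ± 0.14, edgeR adjusted p = 1.96e-06), to a range of 5.52 to 7.25 CPM, and that call was made without an expression filter as well (log2 -1.62). Without a filter, LPS at 3.5 h gave a log2 difference of 0.71, also under 2-fold. Exons of Gm39318 and Srpr on the other strand cover 9.84% of its exon bases.

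Ticam2, the bridging adaptor of the TRIF arm on chromosome 18 (ENSMUSG00000056130), separated the agonists at 3.5 h. Its cultures gave 7.38, 8.10, 7.46, 11.8 and 8.41 CPM in controls, 24.8, 21.3, 19.3, 19.8 and 25.0 CPM with VWF and 6.13, 6.23, 5.74 and 4.09 CPM with LPS. All VWF cultures were above, and all LPS cultures below, the controls. Ticam2 rose 2.61-fold with VWF (log2 1.38 ± 0.14, edgeR adjusted p = 1.14e-05). VWF cultures were 4.03-fold above LPS cultures (log2 2.01 ± 0.16, edgeR adjusted p = 3.04e-06), and log2 1.96 without an expression filter. In a fit without an expression filter, LPS against control was -0.58 on the log2 scale, under 2-fold. Each of 3 other filters let Ticam2 into the time comparison of LPS cultures and called it higher at 16 h (log2 1.14 to 1.18, edgeR adjusted p = 0.00067 without a filter). At 16 h the ranges were 6.52 to 13.2 CPM in controls, 8.16 to 14.4 CPM with VWF and 8.75 to 16.8 CPM with LPS, all overlapping. Ticam2 shares 14.5% of its exon bases with Tmed7 on the same strand, and the handling of reads that fit both genes is not given in the sources used here, so its values are uncertain to that extent.

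Ticam1, which encodes TRIF, lies at chr17:56269319-56276786 on the minus strand (ENSMUSG00000047123). At 3.5 h the 3 groups overlapped, with 23.6, 30.5, 30.5, 33.3 and 36.6 CPM in controls, 26.8, 27.5, 27.7, 27.7 and 38.4 CPM with VWF and 19.0, 27.0, 22.8 and 28.7 CPM with LPS. The log2 difference of VWF from control was -0.03, with a 95% interval of -0.32 to 0.26. By library size, LPS cultures at 3.5 h (16.0 to 22.8 CPM) lay below all controls (27.6 to 42.6 CPM), so their overlap depends on the scaling. At 16 h the groups did not overlap, with 27.1, 29.0, 25.9, 25.6 and 27.1 CPM in controls, 16.8, 19.4, 21.4, 16.5 and 19.5 CPM with VWF and 60.3, 55.9, 65.4 and 53.7 CPM with LPS. Every VWF culture was below, and every LPS culture above, every control. LPS raised Ticam1 2.24-fold (log2 1.16 ± 0.09, edgeR adjusted p = 3.43e-06), or by 0.63 on the log2 scale by library size, which is under 2-fold. The 1.45-fold lower level with VWF was not called (log2 -0.53 ± 0.09, edgeR adjusted p = 0.00148). VWF cultures were 3.13-fold below LPS cultures (log2 -1.65 ± 0.11, edgeR adjusted p = 7.96e-07).

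**Figure D2:**
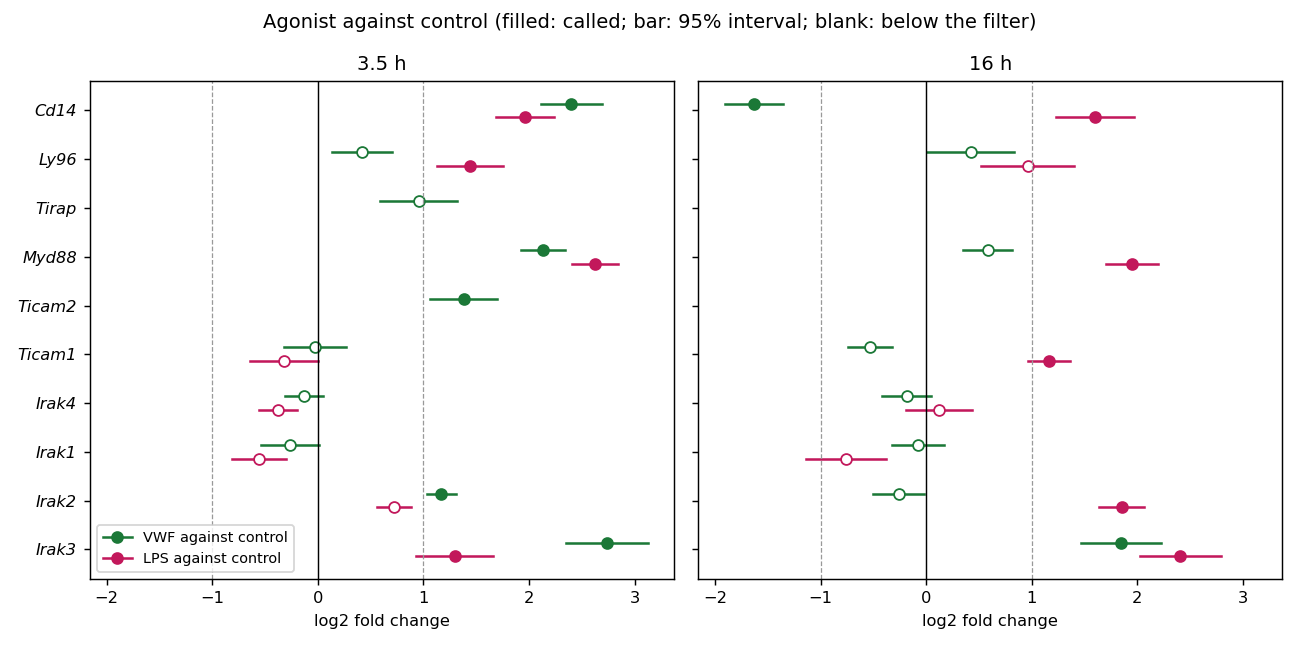
Log2 fold change of each member against the control of the same time at 3.5 h (left) and 16 h (right) for VWF (green) and LPS (magenta), with 95% intervals; filled points are called, dashed lines mark 2-fold and blanks are members below the filter. Cd14 lies at 2.40 and 1.96 at 3.5 h and at -1.63 and 1.60 at 16 h.

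Irak4, the kinase that starts the IRAK cascade, lies at chr15:94543643-94581815 on the plus strand (ENSMUSG00000059883). Irak4 has 7.87% of its exon bases covered by exons of Twf1 on the other strand. Its group means stayed within 2.00-fold, from 23.0 ± 1.10 CPM (SD, n = 4) with LPS at 3.5 h to 46.0 ± 3.82 CPM with LPS at 16 h. No agonist comparison with control called it: the log2 differences were -0.13 and -0.37 at 3.5 h and -0.19 and 0.12 at 16 h for VWF and LPS. The last of these was -0.40 by library size, so its direction depends on the scaling. In LPS-treated macrophages it rose 2.04-fold between the times (log2 1.03 ± 0.10, edgeR adjusted p = 2.74e-05), where 28.1% of 6987 genes were called, 14.6% as higher. Irak4 stood at no more than 9.74 TPM in LPS cultures at 3.5 h, and so entered this comparison through its higher level at 16 h, but was also called without an expression filter (log2 1.01). That call was lost without LPS 3.5 h replicate 2 or LPS 16 h replicate 4, and by library size (log2 0.96). Controls (log2 0.53) and VWF-treated macrophages (log2 0.51) were also higher at 16 h, by less than 2-fold.

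Irak1, the kinase that IRAK4 phosphorylates, lies at chrX:74013914-74023918 on the minus strand (ENSMUSG00000031392). Irak1 shares 2.99% of its exon bases with Mir5132 and Mir718 on the same strand. It was highest in controls at 3.5 h, at 88.0 ± 14.1 CPM (SD, n = 5), and lowest with LPS at 16 h, at 44.6 ± 9.75 CPM (n = 4). LPS cultures lay below all controls of their time, with 54.8, 67.7, 56.6 and 56.4 CPM at 3.5 h and 47.5, 42.1, 56.1 and 32.8 CPM at 16 h. The log2 differences from control were -0.56 ± 0.12 and -0.76 ± 0.17, under 2-fold. By library size both passed the threshold, at -1.08 and -1.30. With VWF the log2 differences were -0.27 at 3.5 h and -0.08 at 16 h, with groups that overlapped.

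Irak2, the second kinase of the MyD88 complex, which sustains late signalling, lies at chr6:113638467-113695026 on the plus strand (ENSMUSG00000060477). Irak2 has 4.44% of its exon bases covered by exons of Gm43963 on the other strand. At 3.5 h it stood at 97.9, 98.0, 93.4, 106 and 92.9 CPM in controls, 210, 218, 204, 215 and 230 CPM with VWF and 148, 158, 169 and 159 CPM with LPS. The 3 groups were fully separate, with VWF highest. By library size the LPS cultures (124.2 to 134.6 CPM) lay only just above the controls (105.4 to 123.9 CPM), so the size of that gap depends on the scaling. VWF raised it 2.25-fold (log2 1.17 ± 0.06, edgeR adjusted p = 4.43e-08), or by 0.95 on the log2 scale by library size, and LPS cultures were 1.65-fold above controls and not called (log2 0.72 ± 0.07). VWF cultures exceeded LPS cultures by 1.38-fold (log2 0.46 ± 0.07, edgeR adjusted p = 0.000361), under the threshold.

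By 16 h the order of Irak2 had turned. The values were 64.4, 64.3, 60.2, 66.6 and 76.7 CPM in controls, 59.3, 51.8, 55.9, 66.8 and 44.9 CPM with VWF and 232, 227, 232 and 243 CPM with LPS. VWF overlapped the controls, and LPS was far above both. LPS raised Irak2 3.61-fold (log2 1.85 ± 0.09, edgeR adjusted p = 2.38e-07). With VWF the difference from control was -0.26 ± 0.11 on the log2 scale (edgeR adjusted p = 0.103), and VWF cultures were 4.18-fold below LPS cultures (log2 -2.06 ± 0.11, edgeR adjusted p = 2.12e-07). The VWF group fell 3.85-fold from 3.5 h to 16 h (log2 -1.94 ± 0.10, edgeR adjusted p = 2.8e-08).

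Irak3, the inhibitory member, lies at chr10:120141648-120202130 on the minus strand (ENSMUSG00000020227) and was the one member called higher with both agonists at both times. Exons of Gm47009 and Tmbim4 on the other strand cover 5.98% of its exon bases. At 3.5 h the controls held 7.66, 7.44, 8.45, 13.0 and 10.4 CPM, the VWF cultures 61.4, 56.5, 51.3, 59.8 and 77.6 CPM and the LPS cultures 20.4, 24.8, 25.3 and 20.1 CPM. All 3 groups were apart. The rise was 6.67-fold with VWF (log2 2.74 ± 0.17, edgeR adjusted p = 1.93e-07) and 2.45-fold with LPS (log2 1.30 ± 0.17, edgeR adjusted p = 4e-05), and by library size the LPS value was 0.77. VWF cultures were 2.75-fold above LPS cultures (log2 1.46 ± 0.14, edgeR adjusted p = 9.79e-06).

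At 16 h Irak3 measured 13.6, 15.6, 15.4, 14.4 and 11.2 CPM in controls, 51.7, 53.5, 64.3, 33.6 and 51.2 CPM with VWF and 80.0, 65.4, 91.3 and 53.6 CPM with LPS. Both treated groups were above the controls and overlapped each other. VWF raised it 3.60-fold (log2 1.85 ± 0.17, edgeR adjusted p = 2.18e-05) and LPS 5.30-fold (log2 2.41 ± 0.17, edgeR adjusted p = 2.27e-06). The difference between VWF and LPS was -0.51, with a 95% interval of -0.96 to -0.05 (edgeR adjusted p = 0.0529). In the VWF group the level at 16 h differed from that at 3.5 h by -0.26 on the log2 scale (95% interval -0.63 to 0.10), while in the LPS group it rose 3.26-fold (log2 1.71 ± 0.18, edgeR adjusted p = 4.49e-05).

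The direct comparison of the agonists changed between the times. At 3.5 h, Irak3 was higher and Ly96 lower with VWF than with LPS, 2 of the 8 members other than Tirap and Ticam2. Of 7500 genes, 11.4% were called, 4.71% higher and 6.71% lower. Ticam2 was called higher beside Irak3. Irak4, one of the 8, was under 10 TPM with LPS and entered this comparison through the VWF cultures. It was not called (log2 0.26). At 16 h none was higher and 4 of the 8 were lower (Cd14, Irak2, Myd88 and Ticam1), where 25.5% of 7574 genes were called and 14.5% were called lower. By library size Irak3 and Ticam2 were called higher and no member lower at 3.5 h, and 1 member was higher and 3 lower at 16 h, with Irak1 called higher (log2 1.16) and Myd88 under 2-fold (log2 -0.88). On that scale all called genes split into 751 higher and 340 lower at 3.5 h (353 and 503 with TMM) and 1726 and 700 at 16 h (837 and 1095).

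**Figure D3:**
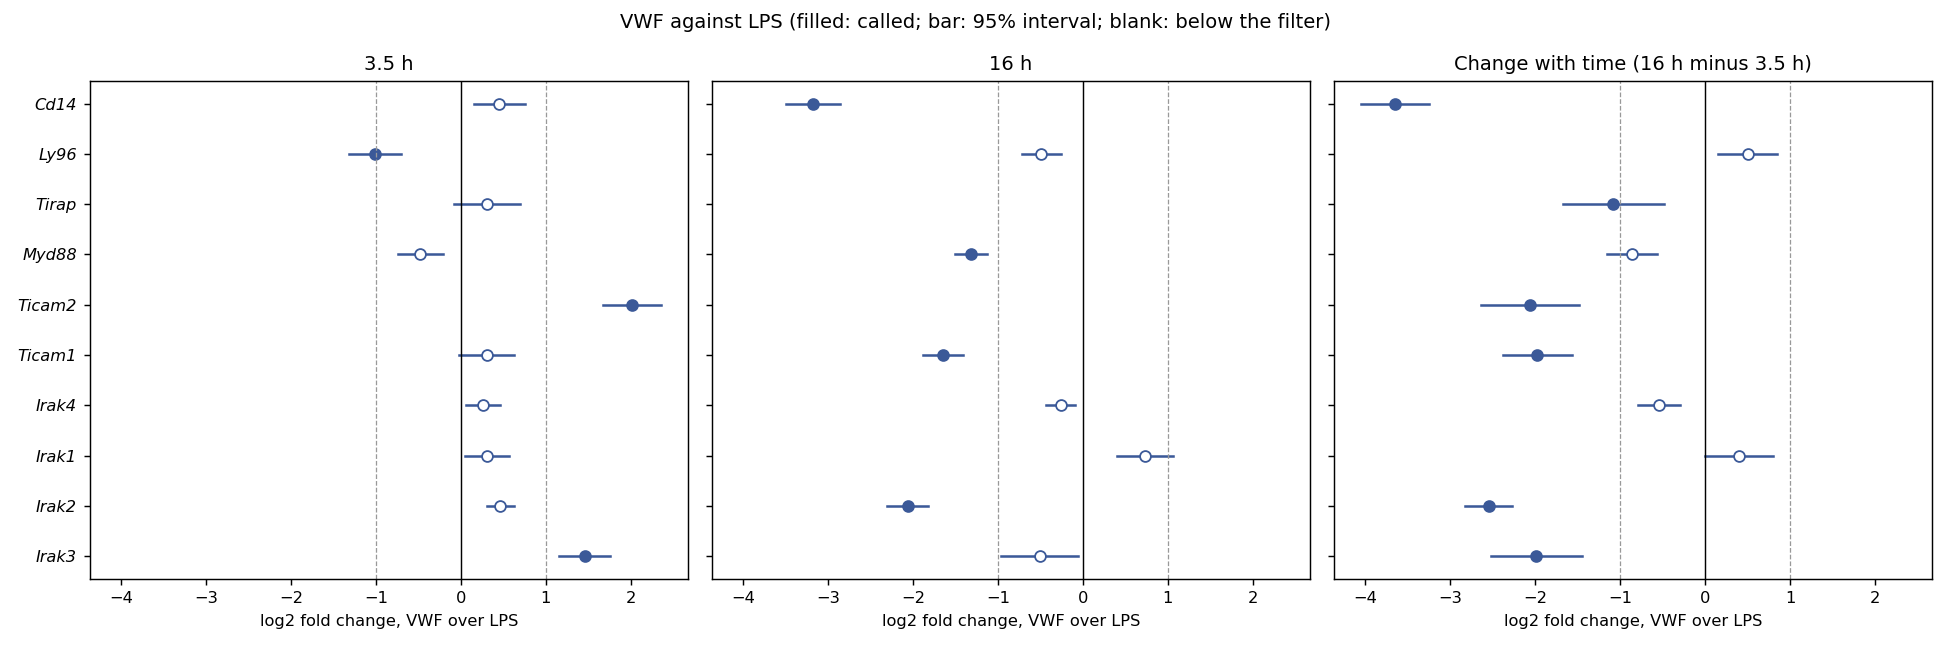
Log2 fold change of VWF over LPS at 3.5 h (left) and 16 h (middle) and its change between the times (right), with 95% intervals; filled points are called, dashed lines mark 2-fold and blanks are members below the filter. Cd14 moves from 0.45 to -3.18 and Irak2 from 0.46 to -2.06, while Ly96 moves from -1.01 to -0.49.

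The change of each effect with time was tested as an interaction. The VWF effect on the log2 scale was lower at 16 h than at 3.5 h for 3 of the 8 members, and higher for none. These were Cd14 (log2 -4.01 ± 0.18), Myd88 (log2 -1.53 ± 0.13) and Irak2 (log2 -1.41 ± 0.13), where 13.5% of 8660 genes were called and 8.05% were called lower. The Cd14 effect turned from a called rise to a called fall. Tirap (log2 -1.22 ± 0.23) and Ticam2 (log2 -1.18 ± 0.25), tested through their high values with VWF at 3.5 h, were called lower too, and without an expression filter both calls were again made (log2 -1.21 and -1.16). For Cd14 the interaction took in the rise of the controls with time as well as the fall with VWF. Irak3 was short of the threshold in this test (log2 -0.87 ± 0.24), and passed it without control 3.5 h replicate 4 (log2 -1.01). The LPS effect was larger at 16 h for 3 of the 8, Ticam1 (log2 1.50 ± 0.18), Irak2 (log2 1.14 ± 0.11) and Irak3 (log2 1.13 ± 0.25), where 26.3% of 8748 genes were called and 13.5% were called higher. Without control 3.5 h replicate 4 the Irak3 value was 0.98, under the threshold. The difference between VWF and LPS moved towards LPS for 4 of the 8, with Cd14 (log2 -3.65 ± 0.19) and Irak2 (log2 -2.55 ± 0.13) ahead of Irak3 (log2 -1.99 ± 0.25) and Ticam1 (log2 -1.98 ± 0.19), where 25% of 8217 genes were called and 14.3% were called lower. Ticam2 (log2 -2.06 ± 0.27) and Tirap (log2 -1.08 ± 0.28) were called lower as well, with -2.01 and -1.02 without an expression filter. Tirap lost that call without LPS 3.5 h replicate 1, LPS 16 h replicate 3 or VWF 3.5 h replicate 5, and by library size (log2 -0.93). Within a single group, VWF-treated macrophages had 3 of the 8 lower at 16 h than at 3.5 h (Cd14, Irak2 and Myd88) besides Tirap, where 21.4% of 7927 genes were called and 12.2% were called lower. LPS-treated macrophages had 3 of the 8 higher (Irak3, Irak4 and Ticam1), where 28.1% of genes were called and 14.6% were called higher. Irak4 is counted here although it entered only through its higher level at 16 h. Its call was lost by library size and without either of 2 cultures, as given above. By library size, all genes called for a change of the VWF effect split into 612 higher and 570 lower (474 and 697 with TMM), and for the VWF to LPS difference into 1172 and 898 (879 and 1173).

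Because TPM is per length, the members can be set against each other inside each culture, where the scaling between cultures drops out. Of the summed TPM of the 4 IRAK genes, Irak3 made up 5.12% ± 0.80 (SD, n = 5) in controls at 3.5 h, 19.3% ± 1.51 with VWF and 10.4% ± 0.80 with LPS (n = 4). At 16 h its share was 8.70% ± 1.10 in controls, 27.6% ± 4.67 with VWF and 21.5% ± 3.65 with LPS. The ranges of VWF and LPS cultures overlapped at 16 h (19.5% to 31.3% and 16.8% to 25.1%) but not at 3.5 h. Irak2 held the largest share in all groups but 2: with LPS it was 60.8% ± 1.69 at 3.5 h and 58.2% ± 4.42 at 16 h, whereas with VWF it went from 56.9% ± 2.46 to 25.5% ± 4.30. The exceptions were controls at 16 h, with 37.4% ± 5.05 Irak1 against 34.3% ± 2.98 Irak2, and VWF at 16 h, with 31.5% ± 0.94 Irak1. Irak1 made up 10.3% ± 1.67 of the IRAK transcripts with LPS at 16 h.

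Among the 4 adaptors Myd88 was the main transcript in every group. Its share was 57.4% ± 4.55 in controls at 3.5 h, 81.7% ± 3.67 with VWF and 90.1% ± 0.55 with LPS, and 63.5% ± 1.88, 77.3% ± 1.75 and 77.3% ± 2.33 at 16 h in the same order. The share of Ticam1 was 31.8% ± 3.44 in controls, 10.3% ± 1.95 with VWF and 6.52% ± 0.77 with LPS at 3.5 h, where its own level did not pass the test with either agonist. Ticam2 made up 0.782% ± 0.21 of adaptor transcripts with LPS at 3.5 h and between 1.98% and 5.24% on average in the other groups. Tirap stayed between 2.07% and 6.31% on average.

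**Figure D4:**
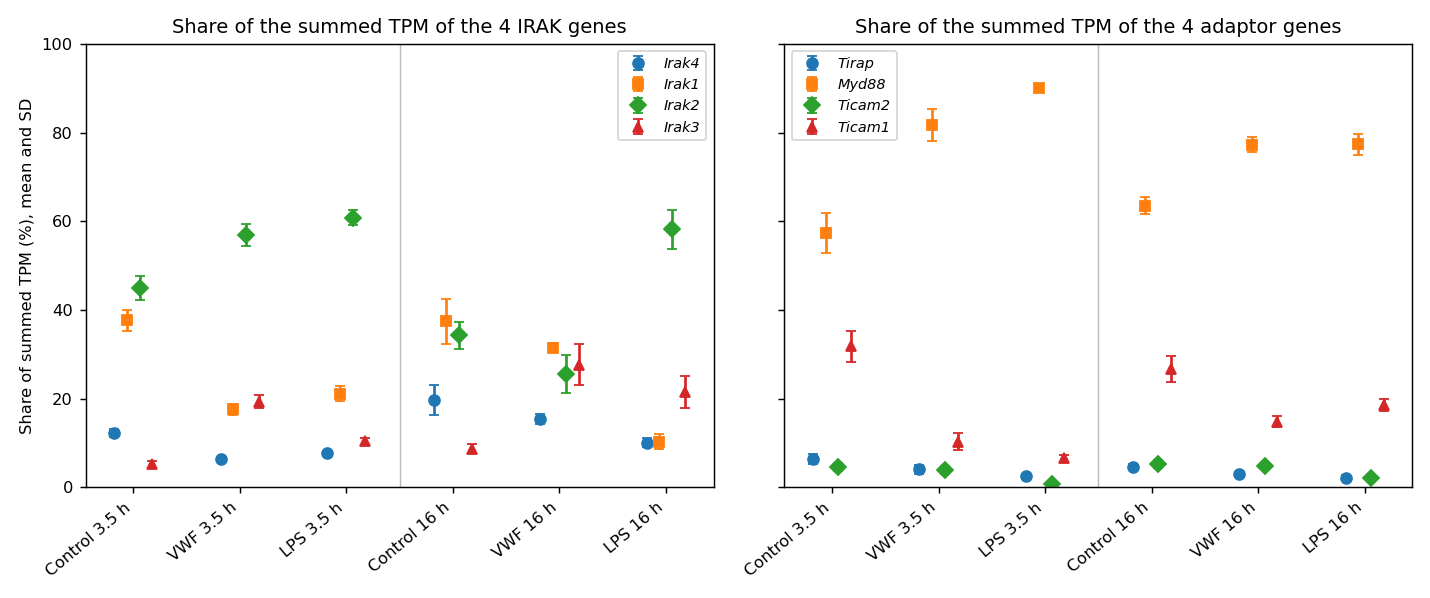
Share of the summed TPM of the 4 IRAK genes (left) and of the 4 adaptor genes (right) that each gene made up, in percent, as mean and SD over the cultures of a group (4 with LPS, 5 otherwise). At 3.5 h Irak3 is at 5.12% in controls and 19.3% with VWF, and Myd88 at 57.4% in controls, 81.7% with VWF and 90.1% with LPS.

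The receptor itself moved the other way at 3.5 h. Tlr4 was at 33.8 ± 6.98 CPM (SD, n = 5) in controls, 15.8 ± 3.24 CPM with VWF and 21.7 ± 4.29 CPM with LPS (n = 4). The ranges of controls (25.8 to 43.4 CPM), VWF (12.0 to 20.9 CPM) and LPS (16.2 to 25.8 CPM) left both treated groups below the controls. It fell 2.10-fold with VWF (log2 -1.07 ± 0.17, edgeR adjusted p = 0.00032). Its 1.54-fold lower level with LPS was not called (log2 -0.62 ± 0.17). In TPM, which is without TMM factors, mean Tlr4 at 3.5 h was 19.9 in controls, 8.08 with VWF and 7.997 with LPS. The gap between the agonists for Tlr4 therefore depends on the scaling. At 16 h the log2 differences from control were -0.39 with VWF and 0.05 with LPS, neither called.

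A list of 42 other genes of the pathway placed the members in their surroundings. With VWF at 3.5 h, 13 of the 35 tested rose and 3 fell (14.7% of all genes were called), and with LPS 15 of 35 rose and 2 fell (24.5% of all genes), with medians of 0.36 and 0.73 on the log2 scale. At 16 h, 4 of 31 rose and 1 fell with VWF (8.71% of all genes), and 14 of 33 rose with LPS (27.6%), with medians of 0.06 and 0.87. Directly compared, VWF cultures had 1 of 34 genes higher and 6 lower than LPS cultures at 3.5 h (11.4% of all genes), and 0 higher and 17 lower of 34 at 16 h (25.5%). By library size, 8 list genes were called for LPS against control and 9 for VWF against LPS at 16 h. All these counts include list genes that entered a comparison only through the group where they were high. Socs1 was one, with at most 2.40 TPM in controls at 3.5 h and 1.44 TPM in controls at 16 h. Map3k8 was another for LPS at 16 h, with at most 7.97 TPM in controls. The counts were not repeated without such genes. Inhibitors of the cascade were among the 8 genes called at over 4-fold with both agonists at 3.5 h. Other listed inhibitors did not share this rise. Inpp5d was called lower with both agonists, from 268 ± 36.2 CPM in controls to 130 ± 16.5 with VWF and 69.2 ± 9.29 with LPS. Dok1 was called higher with LPS alone, and the rest were not called or were below the filter. Socs1, a suppressor of cytokine and TLR signals, was tested only through the treated cultures. It went from 1.87 ± 0.34 CPM to 121 ± 37.8 CPM with VWF and 730 ± 103 CPM with LPS. Tnfaip3, the deubiquitinase A20, rose by 2.90 and 3.70 on the log2 scale with VWF and LPS. The increases of Nfkbia, which holds NF-κB in the cytoplasm, were 2.82 and 3.01, and those of Trafd1, a negative regulator of TLR signalling, 2.05 and 3.19. Of the kinases and ligases, Peli1 rose by 2.73 and 3.78, Map3k8 (the kinase TPL2) by 2.52 and 3.19 and Ikbke by 2.04 and 2.17. Tlr2, the receptor for bacterial lipoproteins, which also uses MyD88 and TIRAP, rose by 3.06 with VWF and 2.32 with LPS. At 16 h the gene that met this rule was Irf7, a transcription factor of the interferon response, at 4.57 with VWF and 6.80 with LPS. Of the 8 genes, Nfkbia (log2 1.68), Tlr2 (log2 1.43) and Ikbke (log2 1.02) were still called higher with VWF at 16 h, as was Irak3. Trafd1 (log2 0.96), Tnfaip3 (log2 0.73), Map3k8 (log2 0.56) and Peli1 (log2 0.55) were not called, and Socs1 was below the filter.

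The genes whose levels ran most like each member's over the 28 cultures were found among 8312 protein-coding genes, as Pearson correlations of log2 CPM. They are a description, since the cultures share their groups and scaling. Myd88 ran closest to Snx10 (r = 0.989) and Daxx (0.988), Irak2 to Adora2b (0.975) and Stk38l (0.970), and Tirap to Dcbld2 (0.972) and Shoc2 (0.961). For Irak3 they were Xylt2 (0.958) and Sema4a (0.943), for Irak1 Akap11 (0.962) and Abca2 (0.951), and for Irak4 Hps4 (0.952) and Smarcal1 (0.946). The neighbours were less close for Ticam2 (Tbc1d2b, 0.932, and Tspyl3, 0.888), Ly96 (AI837181, 0.926, and Fez2, 0.914), Cd14 (Hcar2, 0.923, and Lims1, 0.923) and Ticam1 (Ric1, 0.903, and Tmem178, 0.898). No member was among the 2 nearest genes of another. The closest pair of members was Cd14 and Irak2 (r = 0.831). With the group means taken out, that pair was at -0.15, and the closest pair was Tirap and Irak1 (0.87). Ticam2 and Irak3 (0.86) were next.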

How the data were processed

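Counts per gene in 28 BMDM cultures were used as deposited by the authors, whole numbers that carry neither normalization nor filter. They come from paired reads of 150 bases, which STAR placed on GRCm38 (also named mm10 in the submitters' processing notes). For the annotation, the strand setting and reads that fit several genes, the method is not given in the sources used here. Groups and replicate numbers came from the labels.

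Exon lengths came from GENCODE M21 and gave TPM. Every fit took the groups it compared and no others, by edgeR 4.0.16 (R 4.3.3) with TMM factors, robust dispersion and the quasi-likelihood test, on genes with 10 TPM or more in any of these cultures, and adjusted by Benjamini-Hochberg over all of them. A call needed an adjusted p under 0.05 and an absolute log2 fold change over 1, the thresholds the paper used with DESeq2. DESeq2 1.42.0 was an alternative. Errors of log2 values are SE, and intervals are 95%. CPM used TMM factors over all 28 cultures. Two-sided p-values are given throughout. The fits were tested on simulated data.

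Besides the 10 members, genes named were Tlr4, list genes called with both agonists at one time with an absolute log2 fold change over 2, and the 2 nearest genes of each member by correlation of log2 CPM (prior count 2). The listed inhibitors Inpp5d and Dok1 were named outside this rule. The members and lists were chosen with earlier results of these data known. Alternatives tried were DESeq2, other scaling (median of ratios, or library size only), 3 other filters, no fold threshold, a joint fit of all 6 groups, a replicate block and leaving out each culture. No 2 cultures of a group were duplicates, with a chi-square per degree of freedom of at least 17.1 over 52 pairs. As a check of pairing, same-numbered cultures were compared by their deviations from the group mean: all pairs passed a correlation of 0.1 for VWF against LPS at 16 h alone (0.20 to 0.81, 4 pairs), where the block changed no member's call.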

Additional observations from a re-analysis of the deposited data

Results flagged for a closer look

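In 60 groups of 4 or 5 cultures, 6 held a culture far from the others, where chance gives about 1 in 20 groups, or 3 here. Both of the flagged controls at 16 h were replicate 5, with Ly96 at 5.67 CPM (10.1 to 11.8 in the others) and Irak4 at 56.9 CPM (37.5 to 41.6). The others were Ticam2 in control 3.5 h replicate 4 at 11.8 CPM (7.38 to 8.41), Ticam1 in VWF 3.5 h replicate 5 at 38.4 CPM (26.8 to 27.7), Irak1 in LPS 3.5 h replicate 2 at 67.7 CPM (54.8 to 56.6) and Irak1 in VWF 16 h replicate 3 at 84.2 CPM (70.5 to 73.0).

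An effect differed between the times by edgeR's interaction test in 14 cases. The VWF effect on the log2 scale changed from 3.5 h to 16 h by -4.01 for Cd14, -1.53 for Myd88, -1.41 for Irak2, -1.22 for Tirap and -1.18 for Ticam2. The LPS effect changed by 1.50 for Ticam1, 1.14 for Irak2 and 1.13 for Irak3. The VWF to LPS difference changed by -3.65 for Cd14, -2.55 for Irak2, -2.06 for Ticam2, -1.99 for Irak3, -1.98 for Ticam1 and -1.08 for Tirap.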

How the results depend on the processing

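DESeq2, median-of-ratios factors and one fit of all 6 groups changed no call and no direction of a member's log2 fold change in the 12 comparisons, and the filter over all 28 cultures changed none among the members tested with the filter used. All 3 other filters added a call for Ticam2, which then entered LPS at 16 h against 3.5 h (1.14 to 1.18), and made no other call of a member that had been below the filter. The replicate block changed one call, Ly96 for VWF against LPS at 3.5 h (-0.97), in groups whose numbers were not shown to pair the cultures.

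Library size scaling ended 8 calls, each given with its gene in the report, added 3 for Irak1, and turned the sign of Irak4 in the change of the VWF effect (0.12), LPS against control at 16 h (-0.40) and VWF against LPS at 16 h (0.18). Ticam1 for VWF against control at 3.5 h became 0.017 with filterByExpr and 0.012 without a filter, and with filterByExpr Tirap was called there (1.00). Ly96 was called for LPS at 16 h with filterByExpr and without a filter (1.05 in both). None of these 4 sign changes concerned a called value.

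Calls without a fold threshold were counted over the 8 members other than Tirap and Ticam2. They numbered 7 for LPS against control at 3.5 h, 7 and 7 for VWF against LPS at 3.5 h and 16 h, and 4 for VWF against control at 16 h. For the time comparison of VWF, LPS and control they numbered 5, 6 and 4, and for the change of the LPS effect 5. Of all genes tested, 65.7%, 50.2% and 60.5%, 27.7%, 68%, 60.9% and 41.4%, and 48.8% were then called in the same order. List genes called numbered 28 and 10 for VWF, 27 and 26 for LPS, and 26 and 28 for VWF against LPS at 3.5 h and 16 h, where 43.6% and 27.7%, 65.7% and 53.7%, and 50.2% and 60.5% of all genes were called. Library size gave 8 list genes for LPS against control and 9 for VWF against LPS at 16 h, and filterByExpr and no filter both gave 8 for VWF at 16 h.

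The highest over the lowest group mean was 9.06 for Cd14, 2.68 for Ly96, 6.08 for Myd88, 3.97 for Ticam2, 3.14 for Ticam1, 2.00 for Irak4 and 1.97 for Irak1, and by library size 6.65, 1.89, 4.29, 4.93, 2.36, 2.58 and 2.84.

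Leaving out each culture kept every count of members and list genes within 1.5-fold, and signs turned only in values near 0: Irak1 for VWF at 16 h against 3.5 h (-0.0022 to 0.11), Irak4 (-0.087 to 0.088) and Ly96 (-0.10 to 0.13) in the change of the VWF effect, and Ticam1 for VWF at 3.5 h (-0.16 to 0.027).

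Counts in a culture went as low as 151 for Ticam2. For VWF against control at 3.5 h the SE was nevertheless 0.13 for Ly96 as for Cd14, a member with far higher counts, and what depth adds to these errors was not tested.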
